A study of Mus musculus with 32 samples.

Results

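Il33 (ENSMUSG00000024810) encodes interleukin-33 and is 1 of the 12451 genes in a table of raw counts from YUMM3.3 cells, a mouse melanoma line with mutant Braf. Its row was read in all 32 wells, 4 for each of 8 groups. The gene had been selected on its pattern in these same wells, so that its levels and fold changes are given here as a description without a test. Cells of the 8 groups were left untreated, or received Activin-A at 40 ng/ml, IFN-γ at 20 ng/ml, or both factors at these doses, and were harvested after 4 hrs or after 12 hrs. The labels and the methods of the study give this dose of Activin-A for both times, whereas figure legends name a higher one for 12 hrs. All 32 wells hold cultured cells of this 1 line, without the host, stroma or immune cells of a tumor, so that the p-values given for other genes measure the spread between wells of a single experiment.

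IL-33 is a cytokine of the IL-1 family that is stored in the nucleus of epithelial, endothelial and stromal cells and is released when cells are damaged, for which it is called an alarmin. Outside the cell it binds ST2, the product of Il1rl1, which pairs with the accessory chain encoded by Il1rap and signals through MYD88, IRAK kinases and TRAF6 to NF-κB. Its best known targets are group 2 innate lymphoid cells, mast cells and regulatory T cells. Activin-A is a TGF-β family ligand that signals through SMAD2 and SMAD3, and IFN-γ signals through the kinases JAK1 and JAK2.

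The identity of the cells was checked against marker genes. All 7 melanocyte lineage markers were in the table, and their summed level was between 318.6 and 447.7 CPM (counts scaled to a library of 1000000) in every well. Pmel, Tyrp1, Dct and Mlana made up most of this sum. Group means were between 5.61 and 10.1 CPM for Mitf, 12.8 and 17.8 CPM for Sox10, and 10.7 and 14.3 CPM for Tyr. Those of the fibroblast marker Pdgfra were between 9.78 and 15.3 CPM. Of the markers of other cells that can express Il33 or its receptor, 0 of 4 for endothelial cells were listed, whereas 3 of 6 for leukocytes summed to between 4.38 and 18.4 CPM, 3 of 5 for fibroblasts to between 10.1 and 30.4 CPM, and 1 of 4 for keratinocytes, Krt10, to between 1.09 and 15.2 CPM. Totals ranged from 654539 to 1455074 counts per well, and 3 counts were worth between 2.06 and 4.58 CPM. A level under 3 counts was not read as detection, which holds for the lowest values of Krt10. Among the wells treated with Activin-A for 4 hrs, replicate 1 stood apart. Its 3 pairs with the other wells of the group had a chi-squared per gene of 2.45 to 2.89, where counting noise alone gives 1, whereas the highest value in any other pair was 1.54. The values of Il33 that rest on this well are therefore also given without it, from the 3 other wells.

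In the GENCODE M21 annotation of GRCm38, Il33 lies on the forward strand of chromosome 19, from 29925114 to 29960718, and has 5 annotated transcripts. These coordinates come from the annotation, because the count table holds none and was named by its submitters with the later build GRCm39. The 8-exon transcript Il33-202 begins at the first position of the gene, and another transcript of 8 exons, Il33-201, begins downstream at 29945790. RefSeq likewise gives a pair of starts that are 20677 bases apart. Reads of BRB-seq come from the 3′ end of mRNA and are added up over the gene, so that the values below cannot tell the products of these starts apart. The sequence around each start is shown because Activin-A and IFN-γ act through transcription factors with known recognition motifs. Each window runs from 250 bases before to 50 bases after the first base of the RefSeq transcript, 5′ to 3′ on the forward strand, at chr19:29924863-29925162 and chr19:29945540-29945839 of GRCm38.p6.
Upstream start: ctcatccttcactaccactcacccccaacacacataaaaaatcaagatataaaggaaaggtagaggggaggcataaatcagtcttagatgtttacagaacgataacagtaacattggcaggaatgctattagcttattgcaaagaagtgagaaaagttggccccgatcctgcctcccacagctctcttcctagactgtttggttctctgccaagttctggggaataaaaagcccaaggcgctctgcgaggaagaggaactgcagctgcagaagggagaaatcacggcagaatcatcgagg
Downstream start: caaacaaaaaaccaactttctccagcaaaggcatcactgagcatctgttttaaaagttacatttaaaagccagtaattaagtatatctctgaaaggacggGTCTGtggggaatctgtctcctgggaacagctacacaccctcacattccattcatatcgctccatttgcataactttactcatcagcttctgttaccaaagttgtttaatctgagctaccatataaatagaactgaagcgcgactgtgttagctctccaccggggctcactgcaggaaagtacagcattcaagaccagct
Capitals mark the only match to the motifs described here, which were searched on both strands. It is the SMAD box CAGAC, read here on the reverse strand as GTCTG, and it begins 150 bases before the downstream start. This motif was found in 49.6% of all 32817 RefSeq promoter windows of the same length. Neither window held a spaced pair of GAAA as in interferon response elements, found in 3.43%. The AP-1 motif TGANTCA was likewise absent here and present in 7.81% of all windows, and the κB motif was absent here and present in 8.46%. The search describes letters in these windows and does not bear on whether any factor binds there.

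Il33 was readily detected in all wells, with raw counts from 98 to 422. At 4 hrs the untreated wells held 229, 216, 186 and 217 CPM, with a mean of 212 ± 18.1 (SD, n = 4). The wells treated with Activin-A held 141, 149, 153 and 146 CPM, with a mean of 147 ± 5.20. In RNA from whole wells, less Il33 per cell and fewer cells that express it cannot be told apart. Every well with Activin-A was below every untreated well, and the mean was 69.4% of that without treatment. The log2 fold change (log2FC) was -0.53 with a standard error (SE) of 0.09, and without the replicate that stood apart the mean was 149.4 ± 3.65 CPM (SD, n = 3), or 70.4% of the untreated level, and the log2FC was -0.51. By log2FC Il33 ranked 50 from the lowest among 6966 genes with a mean of at least 20 CPM. Wells of these groups did not overlap in 6.21% of the 9137 genes tested at 4 hrs.

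At 12 hrs the difference was larger. Untreated wells held 324, 316, 342 and 319 CPM (mean 325 ± 11.7), whereas wells with Activin-A held 144, 159, 189 and 171 CPM (mean 166 ± 18.8). The highest well with Activin-A was again below the lowest untreated well, and the mean was 51.0% of that of untreated cells. The log2FC was -0.98 (SE 0.08), the third lowest among the same 6966 genes. The groups did not overlap in 6.88% of the 8971 genes tested at 12 hrs.

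**Figure D1:**
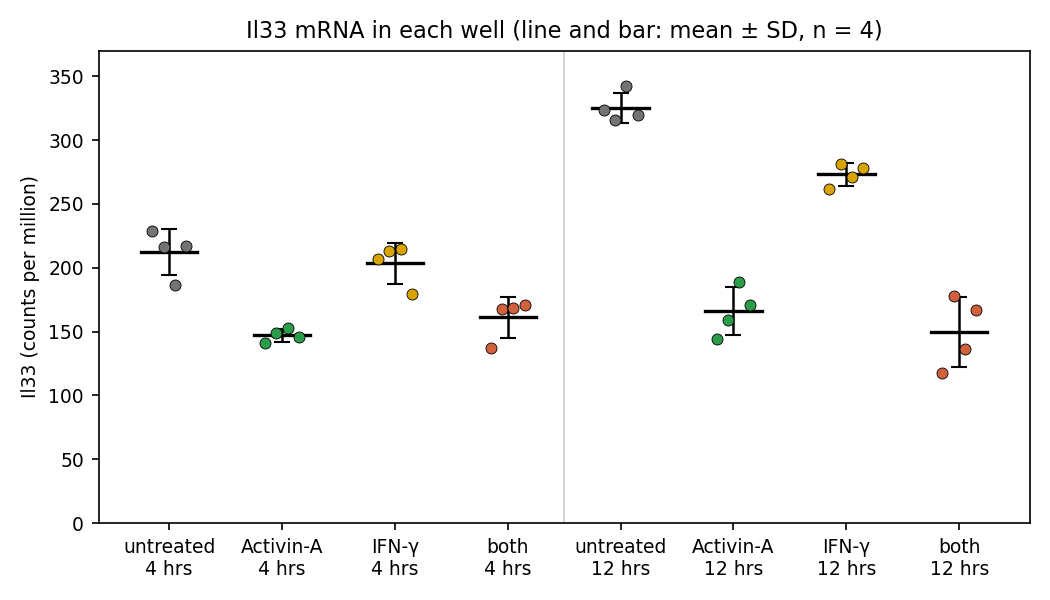
Il33 level in CPM in each of the 32 wells, by treatment and time, where points are wells and lines with bars are the mean ± SD of 4 wells. All wells with Activin-A, alone or with IFN-γ, lie between 118 and 189 CPM, whereas untreated wells lie between 186 and 229 CPM at 4 hrs and between 316 and 342 CPM at 12 hrs.

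With IFN-γ alone Il33 differed less from its level in untreated cells. At 4 hrs its wells held 207, 213, 215 and 180 CPM (mean 203.5 ± 16.3), which overlapped with the untreated wells, and the log2FC was -0.06 (SE 0.09). At 12 hrs they held 261, 281, 271 and 278 CPM (mean 273 ± 8.81). These wells were all below the untreated wells of the same time, and their mean was 84.0% of the untreated level, with a log2FC of -0.25 (SE 0.07). Wells with IFN-γ and untreated wells did not overlap in 12.5% of genes at 12 hrs.

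Addition of Activin-A to IFN-γ was accompanied by a lower level of Il33 at both times. With both factors for 4 hrs the wells held 137, 168, 168 and 171 CPM (mean 161 ± 16.1). All 4 were below the wells with IFN-γ alone, and the mean was 79.2% of theirs, with a log2FC of -0.33 (SE 0.09) that ranked 300 from the lowest of the 6966 genes. At 12 hrs the wells with both factors held 118, 178, 136 and 167 CPM (mean 149.6 ± 27.6), which was the widest spread of any group, with a coefficient of variation of 18.4%. Again no well overlapped with IFN-γ alone. The mean was 54.8% of that with IFN-γ, and the log2FC of -0.87 (SE 0.09) was also the third lowest of the 6966 genes. Wells with both factors and wells with IFN-γ alone did not overlap in 6.01% of genes at 4 hrs and in 5.66% at 12 hrs.

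The converse comparison, in which IFN-γ was added to Activin-A, gave small differences in opposite directions. The log2FC was 0.14 at 4 hrs, with a 95% interval from -0.04 to 0.33, and without the well that stood apart it was 0.12. At 12 hrs it was -0.14, with an interval from -0.32 to 0.05, and it ran from -0.04 without replicate 1 of both factors to -0.23 without replicate 2. In both cases the wells overlapped. If the effects of the factors had multiplied, the expected level with both would have been 141 CPM at 4 hrs and 139 CPM at 12 hrs. The observed means were 114.1% and 107.4% of these values, with 3 of 4 and 2 of 4 wells above them. On an additive scale the expected levels were 139 CPM and 114 CPM, and the observed means were 116.3% and 131.6% of them, with 3 of 4 and 4 of 4 wells above. Without the well that stood apart the expected levels at 4 hrs were 143 CPM and 140.8 CPM, and the observed mean was 112.5% and 114.5% of them. The interaction on the log2 scale, the effect of Activin-A with IFN-γ minus its effect without, was 0.20 (SE 0.13) at 4 hrs, or 0.19 without that well, and 0.11 (SE 0.12) at 12 hrs. The latter ran from 0.02 without replicate 2 of both factors to 0.21 without replicate 1. For comparison, edgeR called an interaction at an adjusted p under 0.05 in 0 of 9137 genes at 4 hrs (0.0%), where 505 genes had an unadjusted p under 0.05 and DESeq2 called 0. At 12 hrs it was called in 1 of 8971 genes (0.0111%), the cysteine biosynthesis gene Cth, where 612 genes had an unadjusted p under 0.05. DESeq2 called 0 at 12 hrs, and edgeR called between 0 and 6 genes when a well was left out.

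**Figure D2:**
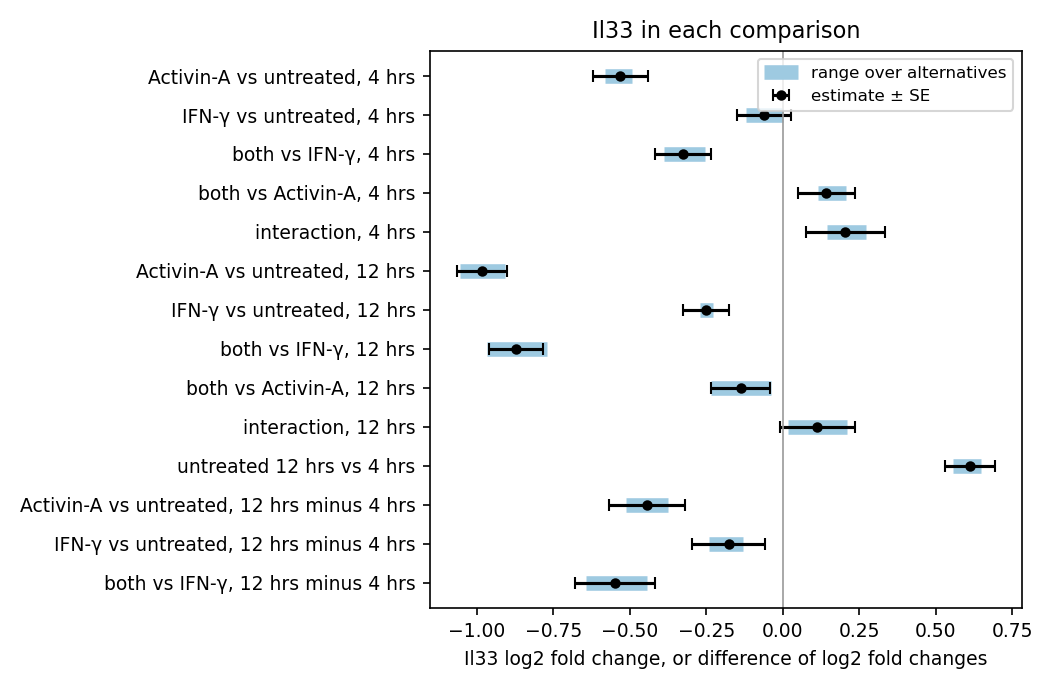
Log2 fold change of Il33 in each comparison, and differences of log2 fold changes for interactions and between times. Points with bars are estimates ± SE, and blue bands span the alternatives in processing, including each well left out in turn. The estimates for Activin-A against untreated cells and for both factors against IFN-γ lie between -0.98 and -0.33.

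The level differed between times in some groups only. Il33 in untreated cells was 153.4% as high at 12 hrs as at 4 hrs, with a log2FC of 0.61 (SE 0.08), and the wells of both times did not overlap, as in 11.0% of genes. With IFN-γ it was 134.2% as high, also without overlap, which was found in 13.2% of genes for this comparison. With Activin-A it was 112.7% as high and with both factors 92.8%, and in these groups the wells of both times overlapped. Without the well that stood apart the value for Activin-A was 111.1%. The effect of Activin-A at 12 hrs minus that at 4 hrs was -0.44 on the log2 scale (SE 0.13), or -0.48 without that well, in the absence of IFN-γ and -0.55 (SE 0.13) in its presence, whereas that of IFN-γ was -0.18 (SE 0.12). These differences between times were called in 0.0214%, 0.0964% and 0.579% of all 9332 genes tested, respectively.

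By mean level, untreated cells at 12 hrs came first, followed by IFN-γ at 12 hrs and untreated cells at 4 hrs, and these neighbours did not overlap. The remaining order was IFN-γ at 4 hrs, Activin-A at 12 hrs, both factors at 4 hrs, both at 12 hrs and Activin-A at 4 hrs. From untreated cells at 4 hrs onward, each group overlapped with the next, and neighbours differed by less than the larger SD except IFN-γ at 4 hrs and Activin-A at 12 hrs.

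Whether the receptor side of the pathway varied along with the cytokine was examined in a list of 15 genes for the receptor and its signaling chain, of which 14 were in the table and were tested. Most of them did not pass the test in any comparison with untreated cells. With IFN-γ, 3 rose at 4 hrs and 4 at 12 hrs, and 0 fell, whereas 5.06% and 9.25% of all genes were called. Il1rl1, which encodes ST2, had the clearest difference. Untreated wells held 43.7, 49.7, 51.2 and 47.6 CPM at 4 hrs, whereas those with IFN-γ held 114, 95.3, 92.0 and 105 CPM, a log2FC of 1.09 (SE 0.13, edgeR adjusted p = 5.02e-10). At 12 hrs the untreated wells held between 32.8 and 37.2 CPM and those with IFN-γ between 99.7 and 124 CPM, for a log2FC of 1.72 (SE 0.14, edgeR adjusted p = 4.47e-20). At both times no well of one group overlapped with the other. Il33 had its highest mean where Il1rl1 had its lowest, in untreated cells at 12 hrs, as shown in the plot of both genes. The means of the groups did not all run in opposite directions. With IFN-γ at 12 hrs they were 273 CPM for Il33 and 111 CPM for Il1rl1, against 166 and 45.7 CPM with Activin-A.

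**Figure D3:**
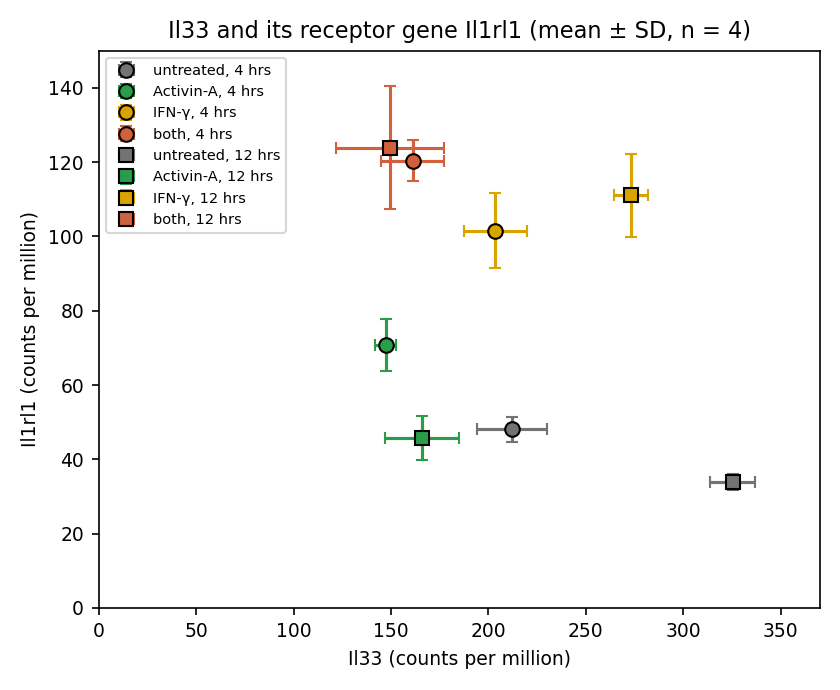
Mean level of Il1rl1, the gene of the IL-33 receptor ST2, against that of Il33 in the 8 groups, both in CPM, with bars for the SD of 4 wells; circles are 4 hrs and squares 12 hrs. Means of Il1rl1 lie between 34.0 and 70.8 CPM in the 4 groups without IFN-γ and between 102 and 124 CPM in the 4 groups with it.

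Activin-A was related to Il1rl1 less clearly. At 4 hrs the wells with Activin-A held between 62.2 and 79.1 CPM, all above the untreated wells, and the log2FC was 0.55 (SE 0.13, edgeR adjusted p = 0.0104). DESeq2 did not call this difference, and without replicate 1 of the untreated wells the adjusted p was 0.0686. At 12 hrs the log2FC was 0.42 (SE 0.16, edgeR adjusted p = 0.218). With both factors Il1rl1 was at 120 ± 5.52 CPM at 4 hrs and 124 ± 16.5 CPM at 12 hrs (SD, n = 4), and compared with Activin-A alone it rose by 0.78 and by 1.45 on the log2 scale (edgeR adjusted p = 1.41e-07 and 2.54e-17). In these comparisons of both factors with Activin-A, 6.07% of all genes were called at 4 hrs and 9.62% at 12 hrs.

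Further along the chain, the adaptor gene Myd88 rose with IFN-γ by 0.80 at 4 hrs and by 0.82 at 12 hrs (edgeR adjusted p = 0.00168 and 0.00101). The kinase gene Irak2 rose with IFN-γ by 1.50 and by 1.13 (edgeR adjusted p = 6.21e-06 and 0.000323), from between 10.9 and 15.3 CPM in untreated wells at 4 hrs to between 27.7 and 53.5 CPM. Tab2, a partner of the kinase TAK1, rose with IFN-γ at 12 hrs by 0.52 (edgeR adjusted p = 0.000967). Il1rap, the other receptor chain, was between 72.3 and 116 CPM in all wells and did not pass the test for either factor. With Activin-A alone, Il1rl1 and Irak2 were called higher at 4 hrs, against 1.64% of all genes, but the call of Irak2 was lost under 4 of 7 alternatives in processing and in 7 of 8 fits with a well left out, and the adjusted p reached 0.194. At 12 hrs Sigirr, which encodes an inhibitory receptor of the family, fell by 0.71 with Activin-A (edgeR adjusted p = 0.0264), against 2.41% of all genes called. DESeq2 did not call it, and the call was lost in 5 of 8 fits with a well left out (adjusted p up to 0.184). When Activin-A was added to IFN-γ, edgeR called 0 of the 14 genes at either time, against 0.81% and 1.03% of all genes. A count of 0 among 14 genes is near that background. Here 2 genes at 4 hrs and 1 at 12 hrs had an unadjusted p under 0.05, and DESeq2 called 0. The 2 at 4 hrs were Il1rl1 and Irak2, with log2FC of 0.24 and 0.48 (edgeR adjusted p = 0.415 and 0.307).

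**Figure D4:**
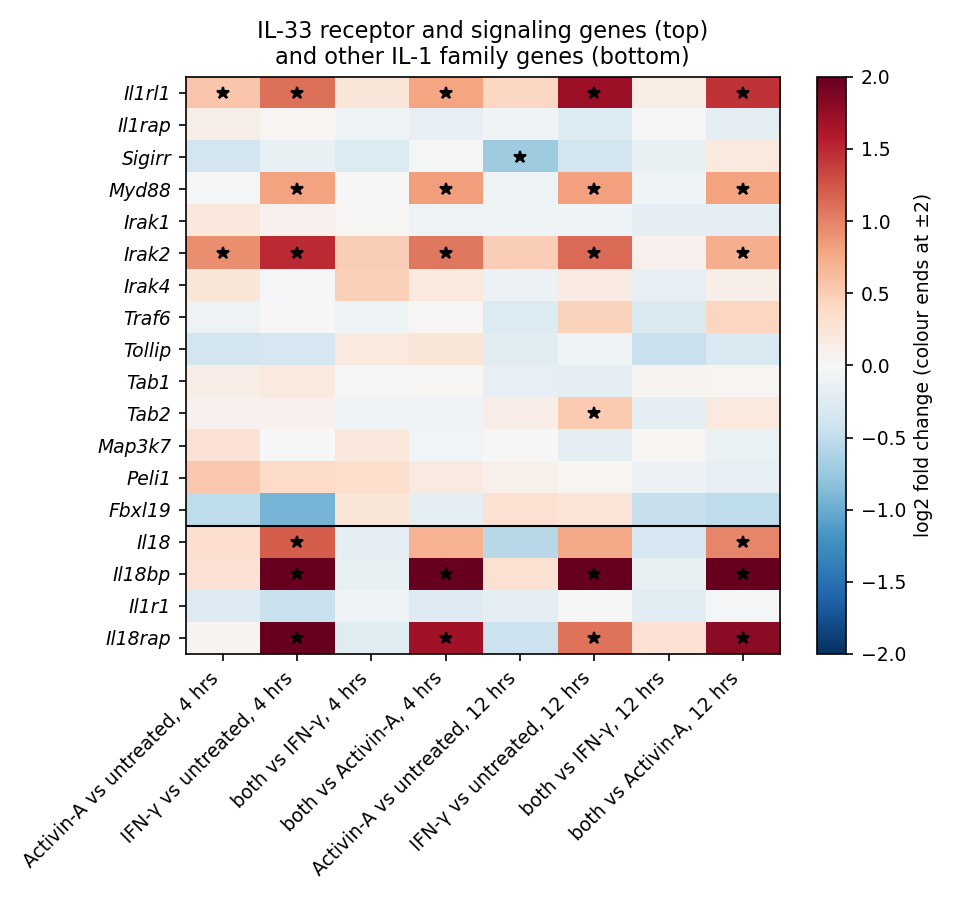
Log2 fold changes of 14 genes for the IL-33 receptor and its signaling (top) and of 4 other IL-1 family genes (bottom) in 8 comparisons, where color gives the value, with its ends at ±2, and stars mark an adjusted p under 0.05. Il1rl1, Myd88 and Irak2 have stars in all comparisons of IFN-γ with untreated cells and of both factors with Activin-A. The columns for both factors against IFN-γ have none, where 0.81% of all genes were called at 4 hrs and 1.03% at 12 hrs.

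Other members of the IL-1 family were mostly at low levels. Of 15 ligands, antagonists and receptors, 6 were in the table and 4 passed the filter on low counts; Il1a, Il1b and Il1rn are not listed. Il18, the only other family ligand that could be tested, had means from 6.12 to 17.5 CPM and rose with IFN-γ at 4 hrs by 1.21 (edgeR adjusted p = 0.0315), a call that was lost with DESeq2 and in 5 of 8 fits with a well left out (adjusted p up to 0.175). Il18bp, which encodes a soluble antagonist of IL-18, had 0 to 4 counts in the untreated wells of both times, and between 50 and 85 counts with IFN-γ at 4 hrs and between 157 and 256 at 12 hrs (edgeR adjusted p = 1.42e-22 and 8.42e-48). The receptor gene Il18rap rose with IFN-γ as well, from a mean of 5.83 to 24.2 CPM at 4 hrs (edgeR adjusted p = 1.74e-06). When Activin-A was added to IFN-γ, edgeR called 0 of the 4 genes at either time, against 0.81% and 1.03% of all genes, none had an unadjusted p under 0.05, and DESeq2 called 0. A count of 0 among 4 genes is near that background.

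Alarmins and cytokines that often accompany IL-33 could be tested for 2 of 10 genes. Hmgb1, which encodes another nuclear alarmin and was at a level near that of Il33, had means between 226 and 258 CPM in all 8 groups and did not pass the test in any comparison. Its log2FC with Activin-A was -0.04 at 4 hrs and -0.07 at 12 hrs. The chemokine gene Ccl2 rose with IFN-γ by 2.02 and by 3.49 and was lower when Activin-A was added to IFN-γ, where it fell by 0.40 at 4 hrs and by 0.77 at 12 hrs (edgeR adjusted p = 0.0011 and 7.7e-15). At 12 hrs its wells held between 632 and 872 CPM with IFN-γ and between 401.5 and 566 CPM with both factors. With Activin-A alone Ccl2 fell by 0.63 at 12 hrs (edgeR adjusted p = 0.00841), which was lost with DESeq2 and in 3 of 8 fits with a well left out (adjusted p up to 0.0957).

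Full-length IL-33 is cut by proteases and leaves the cell when its membrane is breached. Of 13 genes with such roles 12 were in the table and 9 were tested, and 4 of them rose with IFN-γ at each time, of which DESeq2 called 3 at 4 hrs, whereas 5.06% and 9.25% of all genes were called. Mlkl, which encodes the effector of necroptosis, rose by 1.34 at 4 hrs and by 1.57 at 12 hrs (edgeR adjusted p = 2.06e-11 and 2.37e-20). Gsdmd, whose product forms membrane pores, rose by 1.23 at 12 hrs (edgeR adjusted p = 8.52e-09). Mlkl fell by 0.41 when Activin-A was added to IFN-γ for 12 hrs (edgeR adjusted p = 0.0342). This call was lost with DESeq2, with all 32 wells in the fit and in 6 of 8 fits with a well left out, with an adjusted p of up to 0.197.

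The factors themselves were active at the level of mRNA. Of 7 known Activin-A response genes tested, 6 rose with Activin-A at 4 hrs and 4 at 12 hrs, where 1 fell, against 1.64% and 2.41% of all genes called. DESeq2 called 5 at 4 hrs, without Skil, whose call was kept in 1 of 8 fits with a well left out. The gene that fell at 12 hrs, Tgfbi, was lost with DESeq2 and kept in 4 of 8 such fits. Of 11 IFN-γ response genes tested, 10 rose with IFN-γ at each time, against 5.06% and 9.25%. Among transcription factors with links to Il33, the interferon regulatory factor genes Irf1, Irf7 and Irf9 rose with IFN-γ at both times. At 12 hrs they rose by 3.96, by 2.52 and by 1.97 (largest edgeR adjusted p = 8.06e-23). With Activin-A alone, Fosl1, an AP-1 subunit, fell by 0.27 at 12 hrs (edgeR adjusted p = 0.0194), which was lost with DESeq2 and in 4 of 8 fits with a well left out (adjusted p up to 0.123). The SMAD genes Smad2, Smad3 and Smad4 and the NF-κB genes Rela and Nfkb1 did not pass the test with either factor alone, and Smad3 had a log2FC of -0.45 (SE 0.15, edgeR adjusted p = 0.11) with Activin-A at 12 hrs. When Activin-A was added to IFN-γ for 12 hrs, Irf1 had a log2FC of 0.02 (edgeR adjusted p = 0.973), whereas Irf7 fell by 0.64 (edgeR adjusted p = 0.00168).

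The genes next to Il33 on chromosome 19 were examined in the same way. Of 6 protein-coding genes on each side 8 were in the table, of which 6 were tested at 4 hrs and 5 at 12 hrs. Among them Mlana, a melanocyte antigen gene, had means from 49.6 to 61.0 CPM, Uhrf2, which encodes a ubiquitin ligase, had means from 55.4 to 63.3 CPM, and the nearest listed neighbour, Ranbp6, was at or below 5.73 CPM on average. In the comparisons of Activin-A or IFN-γ with untreated cells and of both factors with IFN-γ, edgeR called 0 of these neighbours. Since between 0.81% and 9.25% of all genes were called in these comparisons, a count of 0 among 5 or 6 genes is near the background. At most 1 of them had an unadjusted p under 0.05 in any such comparison, and DESeq2 called 0. With both factors against Activin-A at 4 hrs, where 6.07% of all genes were called, Ermp1 fell by 0.43 (edgeR adjusted p = 0.0441), a call that was lost under 4 of 7 alternatives in processing, DESeq2 among them, and in 6 of 8 fits with a well left out (adjusted p up to 0.174).

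Genes with a pattern like that of Il33 were ranked by the correlation of group means of log2 CPM over the 8 groups, among 349 genes with a mean of at least 20 CPM and a range of group means of at least 1 on the log2 scale. These genes were measured in the same wells and were chosen by their pattern, so that their values are a description. The highest Pearson r was 0.80 for Pdpn, which encodes the membrane glycoprotein podoplanin, followed by Slc27a1 (0.74), a fatty acid transporter gene, and Npnt (0.73), the gene of the matrix protein nephronectin. Next came Arhgap6 (0.71), Hscb (0.68), Nefm (0.66), Arhgap18 (0.62) and Gch1 (0.62), the gene of the first enzyme of tetrahydrobiopterin synthesis. Pdpn was at 92.4 ± 15.3 CPM in untreated cells at 12 hrs and at 64.4 ± 9.15 CPM with Activin-A, but unlike Il33 it had its highest mean with IFN-γ at 12 hrs, at 116 ± 23.9 CPM. Npnt was at 31.3 ± 4.72 and 16.4 ± 3.13 CPM in these groups, but at 32.8 ± 3.58 CPM in untreated cells at 4 hrs. When r was taken over all 32 wells, 5 of the 8 were again among the top 8, and with Spearman's rho over group means 7 were.

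The opposite pattern was closest in Thbs1 (r = -0.90), which encodes thrombospondin-1 and is one of the Activin-A response genes used as a check. It was at 572 ± 31.0 CPM in untreated cells at 12 hrs and at 1203 ± 109.8 CPM with Activin-A. The next was Inhba (r = -0.84), the gene of the βA chain that forms Activin-A itself. Its wells held between 78.4 and 103 CPM untreated and between 111 and 136 CPM with Activin-A at 4 hrs, and between 52.5 and 68.5 CPM and between 87.3 and 91.0 CPM at 12 hrs, without overlap at either time. Cdh6 (r = -0.79), a cadherin gene, and Luzp1 (r = -0.77) came next.

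**Figure D5:**
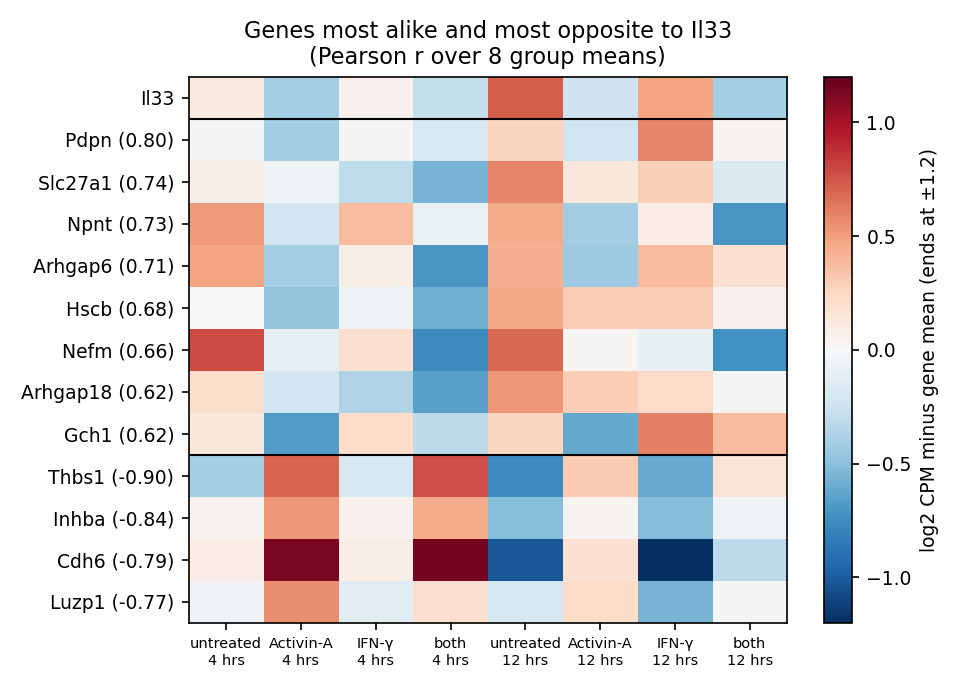
Group means of log2 CPM, each minus the mean of the gene over the 8 groups, for Il33 (top row), the 8 genes with the most similar pattern and the 4 with the most opposite one, with Pearson r over 8 group means in brackets. The color scale ends at ±1.2. Thbs1 (-0.90) is above its mean in the 4 columns with Activin-A, where Il33 is below its own, and Inhba (-0.84) is clearly above its mean in those at 4 hrs only.

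Among genes other than Il33, which was left out of these counts, 53 were called lower with Activin-A alone at 4 hrs. When Activin-A was added to IFN-γ for 4 hrs, 23 were called lower. These comparisons share no wells, and 11 genes were in both lists, which is 20.8% of the first and 47.8% of the second. Of the 9137 genes tested at 4 hrs, 1.64% and 0.81% were called in these comparisons in either direction. At 12 hrs the numbers were 103 and 50 with 17 in both, or 16.5% and 34.0%. Here 2.41% and 1.03% of the 8971 genes tested were called in either direction. The 8 genes most like Il33, a choice that favours this direction, had a log2FC below 0 in both comparisons at both times. At 12 hrs their values ran from -0.92 (Npnt) to -0.16 (Hscb) for Activin-A alone and from -0.69 (Npnt) to -0.18 (Arhgap6) for its addition to IFN-γ. For Il33 the corresponding values were -0.98 and -0.87.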

How the data were processed

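YUMM3.3 cells were profiled by BRB-seq, in which mRNA of each well is barcoded at its 3′ end and sequenced in a pool. The authors deposited raw counts per gene, whole numbers without normalization. The submitters' processing notes name STAR 2.7.10b, featureCounts, DESeq2 1.36.0 and the build GRCm39; the annotation release and the treatment of unique molecular identifiers are not given in the sources used here, so that duplicate reads may be included. Of 12451 genes, 12437 matched a symbol in GENCODE M21 (GRCm38). All genes have a count above 0 in at least 4 wells, so that a gene not listed may have been removed for low counts.

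After filterByExpr and TMM normalization, the quasi-likelihood test of edgeR 4.0.16 (R 4.3.3) was run over the 16 wells of a time, or all 32 for contrasts between times, with p-values adjusted by Benjamini and Hochberg over all tested genes and a threshold of 0.05. SE is the log2FC divided by the square root of F, and 95% intervals assume normality. CPM are TMM-normalized over all 32 wells, with a prior count of 2 for log2 CPM. Scripts were tested on simulated counts. Groups follow the labelled treatment and time; the labels do not say whether they were separate cultures beyond the wells of a plate. The methods of the study name DESeq2's Wald test (here DESeq2 1.42.0), which was run as an alternative together with RLE normalization, no filter, at least 10 counts in every well, a block for the replicate number, only the wells compared or all 32, and each well left out. All 48 pairs of wells of a group differed by more than counting noise. Il33 and all gene lists were chosen with earlier results of these data known. Named genes were those with an adjusted p under 0.05 in most contrasts of a list and then by mean CPM, the genes that define a list, and the 8 most like and 4 most opposite genes. No protein sequence was used here, and some listed genes and a motif are not reported here.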

Additional observations from a re-analysis of the deposited data

Results flagged for a closer look

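In groups of 4 wells, 7 of 104 groups examined had a well far from the others by Dixon's criterion, which chance gives in about 1 of 20 groups. For Il33 this was 1 of 8 groups: with both factors at 4 hrs the lowest well was at 137.2 CPM, whereas the others lay between 168 and 171 CPM, and without this well the log2FC against IFN-γ was -0.26. The remaining cases were among the genes with a similar or opposite pattern: the highest wells of Slc27a1 with Activin-A at 4 hrs (34.97 CPM), Arhgap6 with IFN-γ at 4 hrs (33.77 CPM) and Arhgap18 with IFN-γ at 12 hrs (32.2 CPM), and the lowest wells of Hscb in untreated cells at 12 hrs (36.48 CPM), Gch1 with IFN-γ at 12 hrs (93.42 CPM) and Luzp1 with IFN-γ at 4 hrs (18.73 CPM).

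Of 78 listed genes tested, the effect of IFN-γ at 12 hrs minus that at 4 hrs passed edgeR's test for 4, against 0.579% of all genes, with differences of log2FC of 1.49 for the chemokine gene Ccl2, 0.61 and 1.42 for the guanylate-binding protein genes Gbp2 and Gbp3, and 0.75 for B2m, the light chain of MHC class I. When added to IFN-γ, Activin-A had a smaller effect at 12 hrs than at 4 hrs on Pmepa1, an inhibitor of SMAD signaling, with a difference of -1.53, the only call among these 78 genes in that comparison, where 0.0964% of all genes were called.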

How the results depend on the processing

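For Il33, 240 alternatives were computed over 14 comparisons, and all kept the direction of the main value. Activin-A against untreated cells ranged from -0.58 to -0.49 at 4 hrs and from -1.05 to -0.91 at 12 hrs, and both factors against IFN-γ from -0.39 to -0.26 and from -0.97 to -0.77. IFN-γ against untreated cells reached -7.4e-05 at 4 hrs when a well was left out. With a replicate block, the value for Activin-A at 12 hrs was -0.98 and 218 genes were called in place of 216; wells with the same number in different groups had correlations of -0.089 to 0.042 in their deviations, so that the numbers do not pair the wells. Calls over all genes depended more on the tool. DESeq2 called 92 genes for Activin-A at 4 hrs (edgeR 150) and 140 at 12 hrs (216), 46 for both factors against IFN-γ at 4 hrs (74) and 59 at 12 hrs (92), 569 for both factors against Activin-A at 12 hrs (863), 0 for the interaction at 12 hrs (1) and 5 for the difference between times with both factors against IFN-γ (9). With only the wells compared, 120 genes were called for both factors against IFN-γ at 4 hrs. For the interaction at 4 hrs, 1 gene was called with all 32 wells and 1 without a filter, and at 12 hrs 8 without a filter. When each well was left out in turn, calls ranged from 47 (without replicate 4 of both factors) to 72 for both factors against IFN-γ at 4 hrs, from 0 to 1 and from 0 to 6 for the interactions at 4 and 12 hrs, and for the differences between times from 0 to 3 for Activin-A, from 35 (without replicate 4 of untreated cells at 4 hrs) to 54 for IFN-γ and from 3 (without replicate 1 of both factors at 12 hrs) to 18 for both factors against IFN-γ. The causes of these shifts were not tested. A level of Il33 near 150 CPM rests on about 98 to 215 counts per well. At 12 hrs the SD with Activin-A and with both factors exceeded that of counting alone, which was 13.0 CPM in each. By contrast the SD was below that of counting alone with Activin-A at 4 hrs (5.20 against 12.09 CPM). The same held at 12 hrs in untreated cells (11.7 against 17.85 CPM) and with IFN-γ (8.81 against 16.79 CPM). In these groups the SD between wells is thus smaller than the error of counting.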
